A study of Mus musculus with 6 samples.

Results

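Serpins are a family of protease inhibitors, of which 10 genes were followed here in mouse CD4+ T cells grown under Th1 conditions with or without ALX-5407. The genes were Serpinb1a, Serpinb5, Serpinb6a, Serpinb6b, Serpinb8, Serpinb9, Serpinb9b, Serpina3f, Serpina3g and Serpinh1, taken by name from a count table of 54532 genes. The table lists 68 genes whose name begins with Serpin, so that 58 others remained for comparison. The family was chosen by the levels of Serpinb5 and Serpinb6b, which were far lower with ALX-5407, so the values of the 10 genes in this comparison are a description, and no p-value is attached to them.

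An inhibitory serpin carries an exposed reactive loop that a protease cuts as if it were a substrate. The cut traps the protease in an inactive covalent complex, so each serpin molecule is used up by a single reaction. Genes of the clade named Serpinb encode proteins that stay in the cytosol or nucleus. In lymphocytes they are known for blocking granule and lysosomal proteases that leak into the cell's own cytosol. A few members, including the products of Serpinb5 and Serpinh1, do not inhibit proteases.

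The 6 cultures held CD4+ T cells isolated by magnetic negative selection from spleens of male C57BL/6 mice of 6 to 8 weeks. All 6 were stimulated through CD3 and CD28 in medium with IL-2, IL-12p70 and anti-IL-4, which directs the cells toward interferon-gamma production. In 3 cultures the medium held 500 nM ALX-5407, a blocker of the glycine importer GlyT1 (the product of Slc6a9), and the 3 Th1 controls received vehicle (0.1% DMSO). The labels give 72 h under these conditions, and a figure caption of the study describes culture with ALX-5407 of the same length. The study's written methods for sequencing give a shorter exposure to ALX-5407, and only this single dose was sequenced. The labels call the cultures biological replicates without naming the animals, so the errors below cover the spread between these cultures. Total counts lay between 30801753 and 36727788 per library. Of the genes listed, 15938 passed a filter on low counts and entered the quasi-likelihood test of edgeR, and the median log2 fold change over them was 0.0053. A gene was called when its Benjamini-Hochberg adjusted p-value was under 0.05 and its absolute log2 fold change was over 1, and of all genes tested 3.36% were called higher and 6.68% lower with ALX-5407. All 8 T cell markers checked, Cd3e and Cd4 among them, were abundant in every library. Of these 8, 4 were lower at the adjusted p-value alone and 1 higher (23.2% and 24.5% of all genes tested), Cd2 going from 600 to 376 CPM and Cd4 from 645 to 469 CPM in the group means. Of 5 B cell markers, 3 were higher at the adjusted p-value alone and 0 lower, among them Ms4a1, which was called (0.653 and 1.58 CPM), and Pax5 (2.15 and 4.02 CPM). The part of these shifts in the serpin values was not tested.

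Of the 10 serpins, 8 passed the filter. Under the call rule 2 of these were called higher (3.36% of all genes tested) and 5 lower (6.68% of all genes tested). The genes were selected with this comparison in view, so these counts are no result about the family. In all 8 the libraries of both groups did not overlap, with the treated cultures below for 6 and above for 2. Among all genes tested the groups did not overlap for 55.5%, with the treated cultures below for 27.1% and above for 28.4%, and nothing is read from the members' count. Serpinb9b passed the filter through its control libraries. Values below are in CPM, in which counts are scaled to the effective size of each library, unless another scale is named. RNA from bulk cultures does not tell fewer cells that express a gene from less of its RNA per cell.

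**Figure D1:**
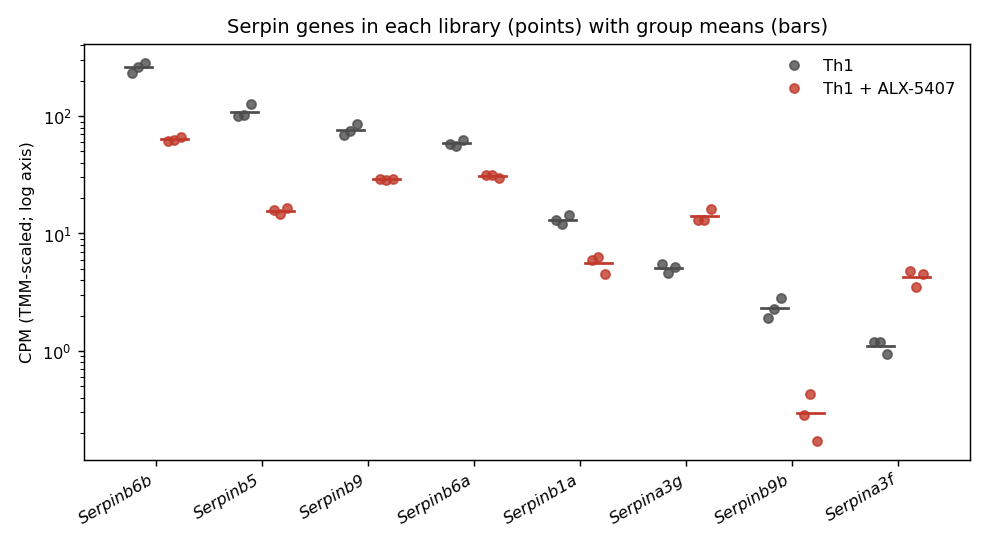
Normalized level (CPM, log axis) of the 8 serpin genes that passed the filter, with 1 point per library and a bar for the mean of each group of 3. For Serpinb6b, the most abundant, the controls sit between 235 and 284 CPM and the treated cultures between 61.1 and 66.3 CPM, and the points of Serpina3g and Serpina3f lie the other way round.

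Serpinb6b (ENSMUSG00000042842, chromosome 13, 32965209 to 32979067, + strand, GRCm38) was the most abundant serpin of the 10. Its product is known as an inhibitor of mouse granzyme A. Its levels were 235, 262 and 284 CPM in the 3 Th1 cultures and 61.1, 63.0 and 66.3 CPM in the 3 treated cultures. The lowest control was thus more than 3 times the highest treated library. The fitted log2 fold change was -2.04 (standard error 0.0817), a level 4.10-fold lower. It ranged from -2.11 to -1.99 over 14 alternative settings, 1 of which changed only the call rule and kept the main fit. Its neighbour in name, Serpinb6a (chromosome 13, 33917918 to 34002794, - strand), encodes an inhibitor of cathepsin G. Serpinb6a had 57.9, 55.9 and 63.1 CPM in Th1 cultures and 31.4, 31.6 and 29.6 CPM in treated ones, a log2 fold change of -0.93 (standard error 0.080). That difference stayed short of the fold threshold. Of the exon bases of Serpinb6a, 29.3% are shared with genes on the opposite strand (Nqo2, 1110046J04Rik and Ripk1), and the sources used here do not say whether reads were assigned by strand. Nqo2 and Ripk1 had log2 fold changes of 0.18 and 0.20, and 1110046J04Rik, which was called lower, had -1.38.

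Serpinb5 (ENSMUSG00000067006, chromosome 1, 106861173 to 106883348, + strand) encodes maspin, a serpin without inhibitory activity that is best known from epithelia. Its levels were 100, 102 and 126 CPM in the Th1 cultures and 15.9, 14.6 and 16.4 CPM with ALX-5407. Among the members with more than 100 counts on average it had the largest difference, a log2 fold change of -2.81 (standard error 0.0987), or 6.99-fold lower. No stretch of 50 or 100 bases of its longest transcript occurs in a transcript of another gene, and its exons overlap no other gene. Of 7 epithelial markers, Krt5, Krt8, Krt14 and Krt19 had at most 10 counts in any library. The summed level of the 7 was 5.65 to 6.63 CPM in Th1 cultures and 5.52 to 8.26 CPM in treated cultures, ranges that overlap. Within that list Krt18 went from 1.78 to 0.476 CPM (log2 fold change -1.89, adjusted p = 0.000503 from edgeR) and Epcam from 3.73 to 6.17 CPM (0.73, adjusted p = 0.00439 from edgeR), and their part in the Serpinb5 values was not tested.

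Serpinb9 (ENSMUSG00000045827, chromosome 13, 33003250 to 33017957, + strand) encodes the cytosolic inhibitor of granzyme B that shields cytotoxic lymphocytes from their own granules. It had 68.6, 75.3 and 85.6 CPM in Th1 cultures and 29.2, 28.3 and 29.4 CPM in treated cultures. The treated cultures were nearly level with one another and all lay below the controls, with a log2 fold change of -1.40 (standard error 0.0877). NK cells, which also carry this serpin, were read from 4 markers, of which Ncr1, Klrb1c and Klra8 had at most 10 counts in any library. Klre1 was the only one above that, and 1 of the 4 was tested. The sum of the 4 was 3.80 to 4.30 CPM in controls and 1.33 to 1.65 CPM in treated cultures. Of 6 macrophage markers, Adgre1, Lyz2 and Cd14 had at most 10 counts in any library. Csf1r, Cd68 and Itgam exceeded that, and 1 of the 6 was tested. The sum of the 6 was 15.5 to 21.0 CPM in controls and 5.38 to 6.30 CPM in treated cultures. The part of both sums in the Serpinb9 values was not tested. Its close copy Serpinb9b (chromosome 13, 33027416 to 33041884, + strand) lies 9458 bases further along and was far scarcer. Its counts were 62, 71 and 87 in the control libraries and 10, 16 and 6 in the treated ones. The log2 fold change of Serpinb9b was -2.96 with a standard error of 0.372, the widest error of the 8. Leaving out 1 library at a time moved it between -3.33 and -2.69. Few stretches are shared between both copies: 0.380% of the 50-base stretches of Serpinb9 and 0.406% of those of Serpinb9b occur in the other, and no 100-base stretch does. Serpinb9b also overlaps the opposite-strand gene Gm36099 over 8.30% of its exon bases, and 5.62% of its 50-base and 2.03% of its 100-base stretches occur in other genes, mostly Gm36099.

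Both copies also keep a similar sequence before their RefSeq start sites, shown here because the genes were lower together. The stretches were found by local alignment of the sequence upstream of each start (RefSeq, GRCm38.p6) and match at 117 positions, 70.5% of the alignment. The Serpinb9 stretch, chr13:33004378-33004535 on the + strand, ends -6 bases from its RefSeq start and lies in the first intron of a longer annotated transcript. The Serpinb9b stretch is chr13:33027254-33027412 on the + strand. Capitals mark the only match to the interferon-stimulated response element searched as GAAA, any 2 bases and GAAA on both strands, which 3.44% of 32851 mouse promoter windows of the same table hold.
Serpinb9: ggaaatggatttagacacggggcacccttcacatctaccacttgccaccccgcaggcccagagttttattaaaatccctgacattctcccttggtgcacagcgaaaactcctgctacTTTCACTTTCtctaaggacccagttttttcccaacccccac
Serpinb9b: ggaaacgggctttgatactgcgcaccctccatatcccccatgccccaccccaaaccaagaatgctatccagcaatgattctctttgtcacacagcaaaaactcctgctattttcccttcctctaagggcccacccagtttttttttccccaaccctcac
The match in Serpinb9 begins at -46 from the start and reads on the opposite strand, and these letters do not occur in the Serpinb9b window. A match of this kind is a description of the sequence, not evidence of binding.

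Serpinb1a (ENSMUSG00000044734, chromosome 13, 32842092 to 32851185, - strand) encodes an inhibitor of neutrophil elastase, proteinase 3 and cathepsin G. Its levels were 12.9, 12 and 14.3 CPM in Th1 cultures and 5.97, 6.32 and 4.56 CPM with ALX-5407. Every treated culture lay below every control, with a log2 fold change of -1.22 (standard error 0.145). Neutrophils are rich in this serpin, so their markers were read beside it. Of 7 neutrophil markers, S100a8, S100a9, Mpo, Camp and Ltf had at most 10 counts in every library, 3 markers of the list had none, and the summed level of the 7 was 93.0 to 103 CPM in controls and 36.6 to 46.8 CPM in treated cultures. That sum came from Ly6g (72.1 and 26.9 CPM in the group means) and Cxcr2 (24.6 and 14.4 CPM). Their part in the Serpinb1a values was not tested.

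Serpina3f and Serpina3g were the members with higher levels in treated cells. They are neighbours on chromosome 12, 15115 bases apart. Serpina3g (ENSMUSG00000041481, 104236245 to 104241939, + strand), also called Spi2A, is a serpin of the cytosol and nucleus that inhibits lysosomal cysteine cathepsins such as cathepsin B and is induced in activated T cells. It had 5.52, 4.59 and 5.23 CPM in Th1 cultures and 13.2, 12.9 and 16.2 CPM with ALX-5407, a log2 fold change of 1.46 (standard error 0.140). Serpina3f (ENSMUSG00000066363, 104214544 to 104221129, + strand) had 1.20, 1.18 and 0.941 CPM in Th1 cultures and 4.78, 3.51 and 4.47 CPM with ALX-5407, a log2 fold change of 1.94 (standard error 0.230). For both genes every treated culture was above every control. The genes are similar enough to share reads. Of the 50-base stretches in the longest transcript, 16.0% for Serpina3g and 10.7% for Serpina3f occur in another gene, against 4.64% and 3.58% of the 100-base stretches. Part of these stretches is shared within the pair: 132 of the 2199 50-base stretches of Serpina3f occur in Serpina3g and 117 of the 1754 of Serpina3g in Serpina3f, so their counts may not be fully separate. The other copies involved, Serpina3e-ps, Serpina3h, Serpina3i and Serpina3n, had at most 6 counts in any library, Serpina3i in a treated one.

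The sequence before both genes is also alike, and it is given because they were higher together. Local alignment upstream of the RefSeq starts matched 119 positions, 81.0% of the alignment. The Serpina3f stretch is chr12:104214294-104214438 and the Serpina3g stretch chr12:104235984-104236129, both on the + strand of GRCm38.p6. Capitals mark a gamma-activated site, the palindrome TTCNNNGAA recognised by STAT proteins.
Serpina3f: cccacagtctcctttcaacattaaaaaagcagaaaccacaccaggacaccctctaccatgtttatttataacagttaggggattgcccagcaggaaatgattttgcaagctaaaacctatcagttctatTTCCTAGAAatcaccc
Serpina3g: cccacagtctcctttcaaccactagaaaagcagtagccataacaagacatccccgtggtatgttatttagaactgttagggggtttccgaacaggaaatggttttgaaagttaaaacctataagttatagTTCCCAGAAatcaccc
The site begins at -121 from the start used for Serpina3f and at -33 from that of Serpina3g, and it occupies the same place in the aligned stretches. A match to TTCNNNGAA is present in 8.30% of 32851 mouse promoter windows. Promoter windows were on hand for 9 of the 10 serpins. Of the others, Serpinb6a held this motif (TTCCGGGAA at -77 and again at 21) and also a match to the interferon-stimulated response element at -84. Serpinb5 held a single match to the AP-1 motif TGANTCA at -140 and Serpinb8 held 2, at -23 and 14, and 7.81% of windows hold this motif. None of the 5 motifs searched matched in the Serpinb6b window. The other motifs searched on both strands were GGGA, any base and TTTCC (NF-kB, 0.411% of windows) and TGATGNAA (ATF4 with C/EBP, 3.97% of windows). Neither matched in a window of the 9 serpins that had one.

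Serpinb8 and Serpinh1 were at the limit of detection. Serpinb8 (chromosome 1, 107590006 to 107610484), an inhibitor of the convertase furin, had 1, 1 and 0 counts in Th1 libraries and 0, 1 and 0 in treated ones. Serpinh1 (chromosome 7, 99345376 to 99353239) encodes HSP47, a chaperone of the endoplasmic reticulum dedicated to collagen. It had 0 counts in all 3 controls and 8, 0 and 1 in the treated libraries. Neither could be compared at this depth, and a difference was not detectable.

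Levels of different genes were compared per length, as RPKM (CPM divided by gene length in kilobases). Lengths cover all annotated exons of a gene. For Serpinb6a this is 5409 bases against 2191 in its longest transcript, for Serpinb9 3494 against 3472 and for Serpinb5 2750 against 2672. The level of Serpinb6a per length may thus be understated beside theirs, and its place in the order, the shares and the sum depend on this choice. In Th1 cultures the order was Serpinb6b (115 ± 10.9 RPKM, SD, n = 3), Serpinb5 (39.8 ± 5.17), Serpinb9 (21.9 ± 2.45), Serpinb6a (10.9 ± 0.683), Serpinb1a (5.68 ± 0.502), Serpina3g (2.43 ± 0.227), Serpinb9b (0.695 ± 0.139) and Serpina3f (0.483 ± 0.0623), and no neighbours in this order overlapped between libraries. With ALX-5407 the order changed. Serpinb6b was still first (28.1 ± 1.18 RPKM), but Serpinb9 (8.29 ± 0.163) and Serpina3g (6.70 ± 0.878) came next, ahead of Serpinb6a (5.71 ± 0.200) and Serpinb5 (5.69 ± 0.344), whose values overlapped. Serpinb1a (2.44 ± 0.405) and Serpina3f (1.86 ± 0.290) also overlapped, and Serpinb9b was last of those tested (0.0878 ± 0.0385). Summed over the 10 genes, the level was 197 ± 19.0 RPKM in Th1 cultures and 58.9 ± 1.78 RPKM with ALX-5407 (SD, n = 3 each), which is 29.9% of the control level. The make-up of that sum also differed. Serpinb6b held 58.5% ± 1.21 of it in controls and 47.7% ± 0.983 in treated cultures, and Serpinb5 held 20.1% ± 0.913 and 9.66% ± 0.393. The share of Serpina3g was 1.24% ± 0.186 in controls and 11.4% ± 1.13 with ALX-5407 (SD, n = 3 each).

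**Figure D2:**
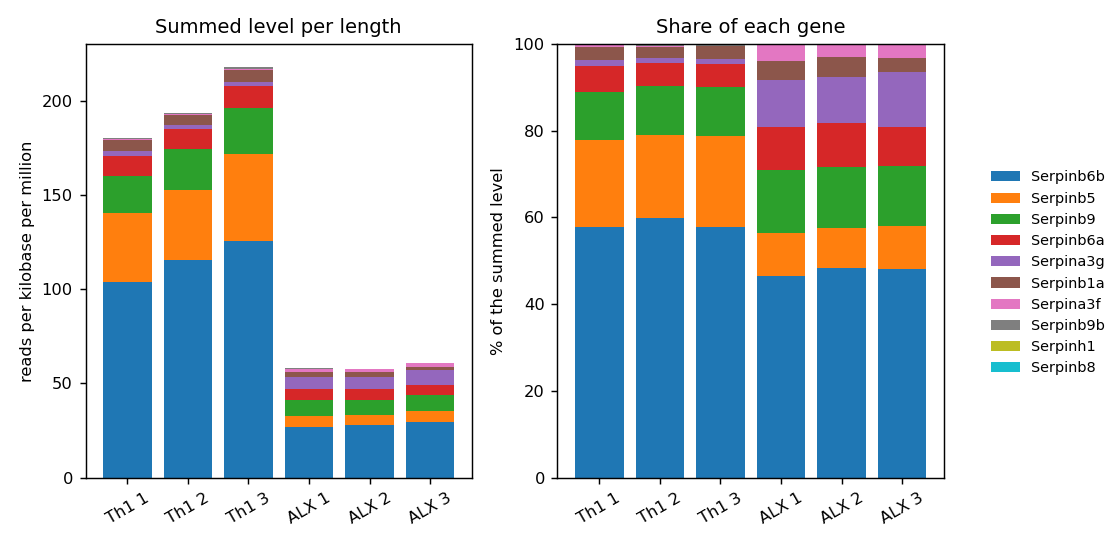
Left, the level per length (RPKM) of the 10 serpins stacked in each of the 6 libraries; right, the share of each gene in that sum. The stacks average 197 in the controls and 58.9 in the treated cultures, and the band of Serpina3g widens from 1.24% to 11.4% of the sum.

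Of the 10 genes, 5 lie on chromosome 13 between Serpinb1a and Serpinb6a, and all 5 were lower with ALX-5407, by 0.93 to 2.96 on the log2 scale. The genes around them were not used to pick the family. In this interval and 500000 bases to either side, 12 genes other than serpins were tested, of which 4 were called lower (6.68% of all genes tested) and 0 higher (3.36%). By the adjusted p-value of edgeR alone 2 of the 12 were higher (24.5% of all genes tested) and 4 lower (23.2%), and the counts were the same at an unadjusted p under 0.05 (27.4% and 26.1% of all genes tested). Gm47662, a noncoding RNA gene between Serpinb6b and Serpinb9 (32997062 to 33001750, + strand), fell from 10.4 ± 0.918 to 1.77 ± 0.290 CPM (SD, n = 3 each), or by 2.55 on the log2 scale (standard error 0.172; edgeR, adjusted p = 1.07e-08). Its exons overlap no serpin, and no 50-base stretch of it occurs in another gene. The antisense gene 1110046J04Rik fell by 1.38 on the log2 scale (adjusted p = 0.0135 from edgeR), but 14.5% of its 100-base stretches lie in Serpinb6a. Tubb2b, a tubulin gene, and the pseudogene Gm6129 were the other 2, at -1.36 and -1.72. Gm6129 had 10, 22 and 15 counts in control libraries and 6, 8 and 2 in treated ones. For 1110046J04Rik the counts were 27, 29 and 29 and then 12, 17 and 8. Both of these passed the filter through their control libraries. Wrnip1, the tested gene nearest to Serpinb1a on its other side, did not pass the test (0.16 on the log2 scale; edgeR, adjusted p = 0.124). These neighbours were looked at after the serpin values were known. Around Serpinb5 on chromosome 1, edgeR called 0 of 6 tested neighbours, with 1 higher and 0 lower at the adjusted p-value alone (24.5% and 23.2% of all genes tested). At an unadjusted p under 0.05 there were 2 in each direction (27.4% and 26.1% of all genes tested). The gene that passed the adjusted p-value lay just under the fold threshold, at 1.00 on the log2 scale. The 1 tested neighbour of the Serpina3 pair, Dicer1, rose by 0.58 on the log2 scale (edgeR, adjusted p = 1.06e-05).

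**Figure D3:**
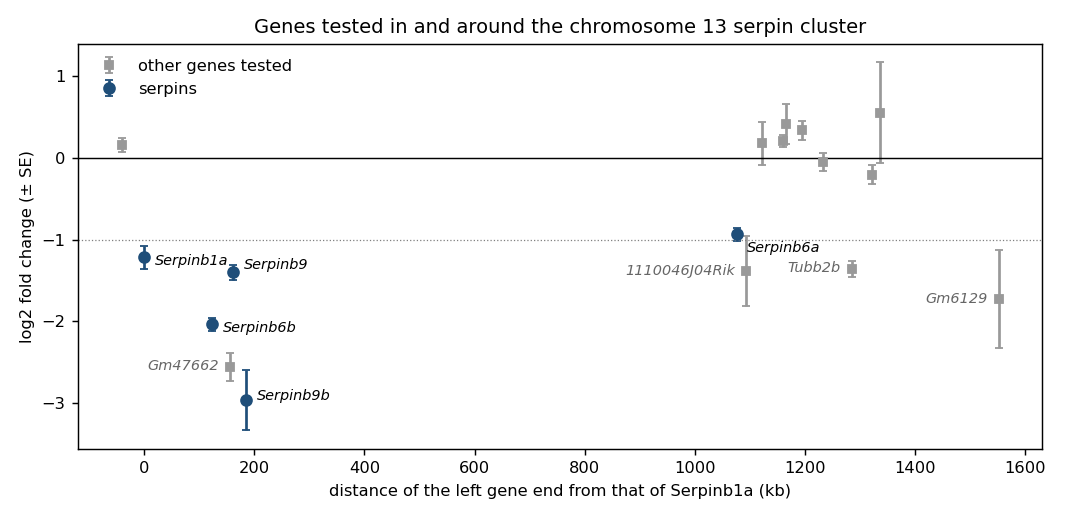
Log2 fold change (treated over control, with standard error) of the genes tested in and around the serpin cluster of chromosome 13, against distance in kb from Serpinb1a. The 5 serpins (circles) lie between -2.96 and -0.93, Gm47662 sits among them at -2.55, and 8 of the 12 other genes were not called.

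The other serpins, whose levels were not the stated reason for the choice of the family, were compared by the test. They are what remained after the members were chosen with earlier results of these data known, so they are no independent set. Of the 58, 40 had 0 counts in every library and 6 passed the filter. Of these 6, 1 was called higher (3.36% of all genes tested) and 2 lower (6.68%), and with the adjusted p-value alone 1 was higher and 4 lower, against 24.5% and 23.2% of all genes tested. The median log2 fold change of the 6 was -0.73. Serpinf1, which encodes the secreted, non-inhibitory factor PEDF, was the most abundant. It fell from 147 ± 13.6 to 64.9 ± 4.61 CPM (SD, n = 3 each), which is -1.18 on the log2 scale (standard error 0.0831; edgeR, adjusted p = 1.60e-08). In Th1 cultures its level per length, 62.5 RPKM, was second among serpins to that of Serpinb6b. Of 7 stromal markers, which were read because stromal cells secrete this factor, Col1a2, Col3a1, Dcn and Pdgfra had at most 10 counts in any library. The summed level of the 7 was 6.02 to 8.38 CPM in controls and 1.97 to 4.50 CPM in treated cultures, and its part in the Serpinf1 result was not tested. Of the 3 stromal markers tested, Lum fell (4.19 and 0.943 CPM; edgeR, adjusted p = 1.20e-05), Pdgfrb rose (0.167 and 0.585 CPM; edgeR, adjusted p = 0.0157) and Col1a1 did not pass the test. Pdgfrb passed the filter through its treated libraries, where it was higher. Serpine2, encoding the thrombin inhibitor protease nexin-1, fell by 0.59 on the log2 scale, short of the fold threshold (adjusted p = 0.000622 from edgeR).

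Serpinb2, which encodes PAI-2, rose from 0.251 ± 0.161 to 1.21 ± 0.518 CPM (SD, n = 3 each). Its counts were 11, 11 and 2 in the control libraries and 40, 66 and 26 in the treated ones, so the log2 fold change of 2.25 has a wide standard error of 0.521 (adjusted p = 0.00196 from edgeR). Serpinb2 passed the filter through its treated libraries. Its exons share 291 bases with Serpinb10 on the same strand, which had at most 2 counts in any library. Serpinc1, the gene of antithrombin, fell by 1.32 on the log2 scale (standard error 0.238; edgeR, adjusted p = 0.000252), from counts of 105, 92 and 84 to 40, 48 and 40. Of its exon bases 34.4% overlap Zbtb37 on the opposite strand, and 58.4% of the 100-base stretches of its longest transcript occur there. Whether counting used strand is not given in the sources used here, so the value is uncertain. Serpini1, encoding neuroserpin, did not pass the test (log2 fold change 0.39, adjusted p = 0.363 from edgeR). Serpinb1b, a copy of Serpinb1a further along chromosome 13, had 6, 19 and 6 counts in control libraries and 0, 2 and 0 in treated ones, too few to pass the filter.

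**Figure D4:**
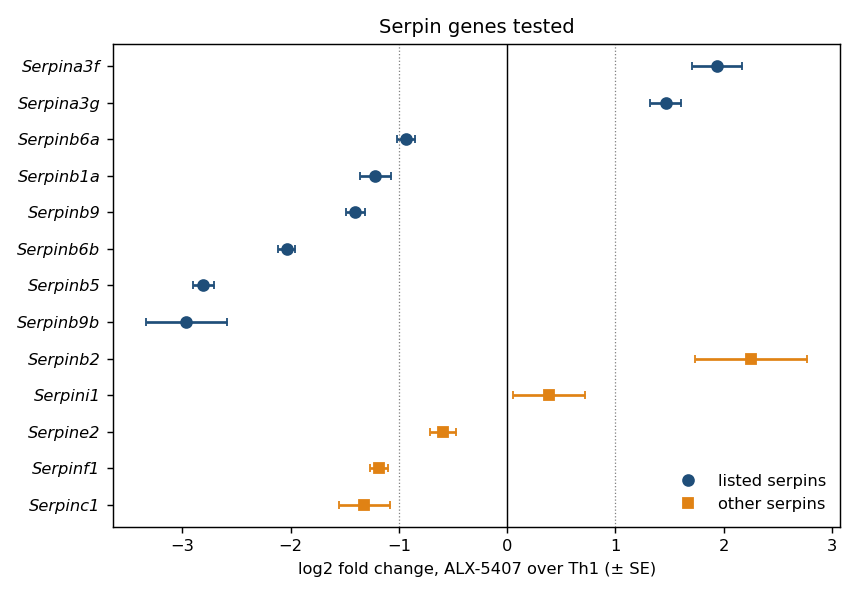
Log2 fold change (treated over control, bars are standard errors) of 13 serpin genes tested; circles are the 8 listed genes and squares 5 others, with dotted lines at the fold threshold of 1 in either direction. Serpina3f, Serpina3g and Serpinb2 lie beyond the threshold on the right, and 7 genes lie beyond it on the left.

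Proteases that serpins act on were read from lists of each class. Granule serine proteases include the granzymes that Serpinb9 and Serpinb6b inhibit. Of 17, 7 were tested and 2 were called lower (6.68% of all genes tested), Gzmc (log2 fold change -1.43, adjusted p = 4.43e-05 from edgeR) and Prtn3 (-1.46, adjusted p = 0.0408 from edgeR). Prtn3 passed the filter through its control libraries, where its mean was higher. It rests on a mean of 16.0 counts, and its libraries overlapped between groups. Its call was lost without control library 1 or 3 or treated library 1 or 3 (adjusted p of edgeR from 0.0896 to 0.208). Gzmb, the target of Serpinb9, went the other way from its inhibitor. It rose from 808 ± 13.8 to 1232 ± 197 CPM (SD, n = 3 each), which is 0.61 on the log2 scale (standard error 0.0934; edgeR, adjusted p = 5.50e-05). Per length, there were 3.47, 3.78 and 4.44 Serpinb9 reads for every 100 Gzmb reads in the Th1 cultures and 0.830, 0.975 and 1.14 in the treated cultures. The lowest control value was thus about 3 times the highest treated one. Gzma, the target of Serpinb6b, fell from 7.23 ± 1.11 to 5.22 ± 0.0742 CPM (SD, n = 3 each; log2 fold change -0.47, adjusted p = 0.0189 from edgeR).

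Of 14 lysosomal cathepsins and legumain, 13 were tested and 1, Ctsw, was called lower (6.68% of all genes tested; log2 fold change -1.27, adjusted p = 2.27e-09 from edgeR). At the adjusted p-value alone 3 of the 13 were higher and 3 lower, against 24.5% and 23.2% of all genes tested, and the median log2 fold change was 0.044. Ctsb, a target of Serpina3g, overlapped between groups, at 270 ± 6.64 and 276 ± 4.64 CPM (SD, n = 3 each; log2 fold change 0.030, adjusted p = 0.743 from edgeR). Ctsz likewise gave 0.044 (adjusted p = 0.663 from edgeR). Of 8 proprotein convertases, 6 were tested, with 0 called higher (3.36% of all genes tested) and 1 lower (6.68%). At the adjusted p-value alone 1 was higher and 1 lower, against 24.5% and 23.2% of all genes tested. Furin, the target of Serpinb8, rose from 690 ± 57.0 to 1093 ± 10.7 CPM (SD, n = 3 each; log2 fold change 0.66, adjusted p = 2.29e-06 from edgeR), and Pcsk1 was called lower (-2.72, adjusted p = 2.09e-06 from edgeR). Mbtps1 had 0.13 on the log2 scale (edgeR, adjusted p = 0.167). Of 10 genes around plasminogen, the system that Serpinb2 restrains, 4 were tested and 0 were called by edgeR, with 1 higher and 2 lower at an unadjusted p under 0.05 (27.4% and 26.1% of all genes tested). Limma-voom and the fit without a filter on low counts called 1, Plat. In the main fit Plat passed the filter through its control libraries, where its mean was higher. St14, the protease matriptase, rose by 0.57 (adjusted p = 0.00105 from edgeR), and Plaur, the urokinase receptor, fell by 0.76 on the log2 scale (adjusted p = 0.028 from edgeR). Plau had -0.64 on the log2 scale (edgeR, adjusted p = 0.293). Of 10 caspases, proteases of cell death that a few serpins bind, 8 were tested. By edgeR 1 was called higher (3.36% of all genes tested) and 0 lower, and 5 of the 8 were higher and 1 lower at the adjusted p-value alone (24.5% and 23.2% of all genes tested). The counts were the same at an unadjusted p under 0.05 (27.4% and 26.1%). Casp6 and Casp8 rose by 0.61 and 0.46 on the log2 scale (edgeR, adjusted p = 2.72e-05 and 4.97e-05).

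Of 34 collagen and collagen folding genes, the partners of Serpinh1, 19 were tested, with 1 called higher (3.36% of all genes tested) and 2 lower (6.68%). At the adjusted p-value alone 2 of the 19 were higher and 9 lower, against 24.5% and 23.2% of all genes tested. Kdelr3 and Fkbp7, which act in retrieval and folding in the endoplasmic reticulum, were the called decreases at -1.32 and -1.36. Col5a1 was called higher (1.40, adjusted p = 0.00683 from edgeR), a call lost without treated library 3 (1.09, adjusted p = 0.0519 from edgeR).

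Inhibitors outside the serpin family were counted in the same way. Of 42 genes listed, 41 were in the table and 21 were tested. Of these, 0 were called higher by edgeR, with 3 higher at an unadjusted p under 0.05 (27.4% of all genes tested), and 3 were called lower (6.68% of all genes tested). Timp1, an inhibitor of matrix metalloproteinases, fell from 612 ± 49.2 to 79.2 ± 1.99 CPM (SD, n = 3 each), which is -2.95 on the log2 scale (standard error 0.0802; edgeR, adjusted p = 7.84e-13). Birc2, an inhibitor of apoptosis protein, had -1.19 (adjusted p = 8.06e-09 from edgeR) and Ctla2b, a cathepsin inhibitor of activated T cells, -1.16 (adjusted p = 0.00287 from edgeR). At the adjusted p-value alone 3 of the 21 were higher and 9 lower, against 24.5% and 23.2% of all genes tested, and the median log2 fold change of the list was -0.23.

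**Figure D5:**
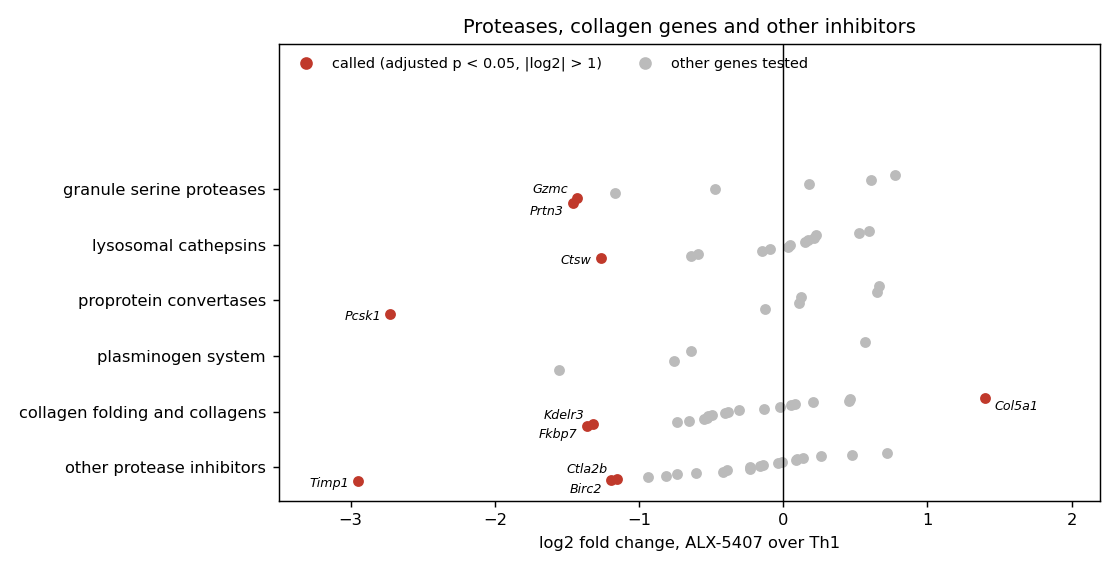
Log2 fold change (treated over control) of every tested gene in the lists of granule, lysosomal, convertase and plasminogen proteases, collagen genes and non-serpin inhibitors, with 1 point per gene; named red points were called. Timp1 at -2.95 and Pcsk1 at -2.72 are farthest to the left, and Col5a1 is the called gene on the right.

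The genes whose level most resembled that of Serpinb6b and Serpinb5 over the 6 libraries were listed by Pearson's r of log2 CPM among 12116 other genes with a mean of at least 50 counts. For Serpinb6b they were Gm10073, Cd83, Stk38l, Eif2ak3 and Timp1, each with r of 0.999 to 3 digits. For Serpinb5 they were Samhd1, Ctss, Rbm5 and Slc30a9 among the first 5, also at 0.999. The 6 libraries form 2 groups, so these values mostly repeat the gap between the groups, and they are given as a description. The likeness is one of shape rather than size, since Cd83 had a log2 fold change of -2.66 and Gm10073 one of -0.60.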

How the data were processed

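RNA from 6 cultures (3 Th1 with vehicle, 3 with ALX-5407) was sequenced. The written methods describe depletion of ribosomal RNA and the labels describe selection of polyadenylated RNA. Per the labels, reads were processed with fastp, HISAT2 2.0.5 and featureCounts 1.5.0-p3 on mm10. The strand setting, annotation release and treatment of reads with several alignments are not given in the sources used here. The authors deposited counts per gene, with gene lengths and GRCm38 coordinates. These counts were taken to be raw, without normalization or pooling.

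The counts were filtered with filterByExpr in edgeR 4.0.16 (R 4.3.3; minimum count 10, minimum total 15), scaled by TMM (factors 0.965 to 1.03) and compared by the quasi-likelihood F test, with p-values adjusted over 15938 genes (Benjamini-Hochberg). The study's DESeq2 thresholds (adjusted p under 0.05, absolute log2 fold change over 1) were kept. Standard errors were derived from the fold change and its F statistic. RPKM used the deposited gene lengths. On simulated counts for this comparison (15976 genes), 97.9% of genes changed 3-fold and 100% of those changed 4-fold were called. The simulation gave all genes the same coefficient of variation (0.0978) and changed few of them. Recovery of genes with a wider spread was thus not tested.

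The members and lists were chosen with earlier results of these data known. Named genes were all members, called or most abundant genes of each list, called other serpins with the 5 most abundant, and the 5 genes most alike to Serpinb6b and Serpinb5. Markers, neighbouring genes and Epcam, Krt18, Ly6g and Cxcr2 were named after their values were seen, as were Serpinb1b, Lum, Pdgfrb, Cd2, Ms4a1, Pax5, Plat, Nqo2, Ripk1, Wrnip1 and Dicer1, and the genes Gzma and Ctsb as targets of members. Some genes that the rule takes in are not reported here.

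Gene models and shared stretches came from GENCODE M21 on GRCm38 (exact matches of 50 and 100 bases on either strand, since the read length is not given), and promoter windows from RefSeq on GRCm38.p6 (Biopython 1.88). No library repeated another (chi-square per degree of freedom between replicates 5.65 to 22.4). Alternatives were RLE and upper quartile scaling, DESeq2 1.42.0, limma-voom (limma 3.58.1), other filters, no fold threshold, a replicate block and leaving out each library. Plots used matplotlib 3.10.9 (Python 3.11.15).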

Additional observations from a re-analysis of the deposited data

How the results depend on the processing

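The 8 members kept their direction under all 14 alternatives, of which the one without a fold threshold is the main fit itself. Each stayed on its side of the call except Serpinb6a, which was called (-0.93) once the fold threshold was dropped. The 7 member calls stood without any 1 library. All these fits reuse the libraries by which the family was chosen, so they describe the processing and lend the members' values no support. Calls over all genes ranged from 502 to 565 higher and from 923 to 1129 lower with 1 library left out, granule proteases from 1 to 2, plasminogen genes from 0 to 1, collagen genes from 2 to 3 and other inhibitors from 3 to 4; other serpins stayed at 3, and cathepsins, convertases and caspases at 1 each. Without the fold threshold there were 3910 higher and 3695 lower calls over all genes, together 47.7% of those tested. The calls then took in 5 of 6 other serpins, 4 of 7 granule proteases, 6 of 13 cathepsins and 2 of 6 convertases. They also took in 2 of 4 plasminogen genes, 6 of 8 caspases, 11 of 19 collagen genes and 12 of 21 other inhibitors. Nothing is read from these counts. Limma-voom and the absence of a filter each gave 1 plasminogen call, Plat. Same-numbered cultures did not deviate together (correlations 0.0089, 0.0181 and 0.104 across genes), and with the replicate number as a block there was 1 granule protease call (Prtn3 lost, adjusted p = 0.0566 from edgeR) and 1 plasminogen call (Plat); no other list moved by over 1.5 times. As TPM the summed level of the 10 serpins was 572 in Th1 cultures and 194 in treated ones, on a scale that differs by construction; with 1 library left out it ranged from 187 to 205 and from 57.9 to 59.5 RPKM. With 3 cultures a group, an exact permutation test of 1 gene cannot go below p = 0.1, and genes under about 50 counts, such as Serpinb9b and Serpinb2, have wide errors.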
